A study of Mus musculus with 8 samples.

Results

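The genes described here encode the collagens and the other extracellular matrix proteins of the dermis, the connective tissue layer of skin. They were taken from a list of 41 gene symbols in 4 classes: 16 collagens, 11 genes of the elastic fibre, 7 proteoglycans and collagen-binding proteins, and 7 genes of the matrix laid down in wounds. A member counted as measured when a probe with its symbol, or an older or newer synonym, had an intensity on all 8 arrays, which held for 36 of the 41 among 9987 measured named genes. Of the other 5, Col6a1, Fbln5 and Lox had no probe under that symbol, and the probes of Col12a1 and Fmod were blank. The RNA came from abdominal skin of female C57BL/6JNarl mice, 6 to 8 weeks old and of no other genotype named in the sources. The skin was painted with 100 μL of acetone containing shikonin, a plant naphthoquinone, at 10 μg/μL, or with 100 μL of acetone alone, and was taken 4 h or 24 h later. The 4 groups were shikonin 4 h, acetone 4 h, shikonin 24 h and acetone 24 h, with 2 one-colour arrays each. Each acetone group is a solvent control for 1 time point, and untreated skin was not measured on these arrays.

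Dermal fibroblasts secrete most of these proteins. Fibril-forming collagens give skin its tensile strength, while elastin, laid down on a scaffold of fibrillin microfibrils, gives it recoil. Small proteoglycans with leucine-rich repeats coat the collagen fibrils and govern their width and spacing. Type IV collagen builds the sheet-like basement membrane under the epidermis and around vessels, nerves and muscle fibres, and type VII collagen anchors the epidermal sheet to the dermis. During repair, skin lays down a provisional matrix rich in fibronectin, and matricellular proteins such as tenascin C and the thrombospondins, which signal to cells rather than bear load, appear in it.

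All values are intensities in the unit of the deposited table, and each gene is represented by its brightest probe unless another is named. Levels were compared between arrays for 1 probe at a time and never between probes. Before log2 was taken, any intensity below 203.4, the 5th percentile of the table, was set to 203.4, called the floor here, and values of 65000 or above counted as saturated. A fold change is a lower bound if the floor held the dimmer group on both arrays, or if saturation touched the brighter group. The shikonin and acetone arrays of each time were set against each other with limma over 13853 probes, with a Benjamini-Hochberg adjusted p of at most 0.05 as the threshold, and a gene that passed is said to have risen or fallen. Errors after ± are standard errors of the log2 fold change, with 2 arrays per group. Replicate arrays correlated across probes at 0.986 to 0.992, and the number of arrays limits the precision. The duplicate samples are not tied to single animals in the labels, so the p-values measure the spread between these samples, part of which may be technical. In whole skin, fewer cells of a type and less RNA per cell cannot be told apart.

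Most matrix genes were lower in shikonin-treated skin at both times. At 4 h, 22 of the 36 members fell, where 26.5% of all 9987 genes did, and 7 rose, where 20.4% of all genes did. At 24 h, 22 again fell against 33.7% of all genes, and 7 rose against 28.3%. The median log2 fold change of the 36 members was -0.58 at 4 h and -1.03 at 24 h, beside -0.07 and -0.05 over all genes. Of the members, 18 fell at both times, namely Bgn, Col14a1, Col15a1, Col16a1, Col1a1, Col1a2, Col5a1, Col5a2, Col6a2, Col6a3, Col7a1, Dpt, Eln, Fap, Mfap2, Ogn, Postn and Sparc. Another 5 rose at both times, namely Col4a1, Col4a2, Prelp, Thbs1 and Tnc. Fbln2, Fbn1, Loxl1 and Lum passed as lower at 4 h and did not pass at 24 h, while Fbln1, Mfap4 and Thbs2 passed as lower at 24 h alone and Col18a1 and Fn1 as higher at 24 h alone. Mfap5 rose at 4 h and fell at 24 h, Fbn2 rose at 4 h alone, and Col3a1 and Dcn passed at neither time. The paper kept genes that changed 2-fold or more in 2 independent experiments, without saying which arrays were paired. The 2-fold criterion used here asks for at least 2-fold the same way in both same-numbered pairs of arrays. By it, 2 members were higher and 5 lower at 4 h, beside 6.55% and 5.19% of all genes. At 24 h the same criterion took 3 as higher and 15 as lower, beside 12.4% and 13% of all genes.

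The calls were also counted within each class. Of 14 measured collagens, 10 fell at each time, while 2 rose at 4 h and 3 at 24 h, with medians of -0.66 and -1.09. Of 9 elastic fibre genes, 5 fell and 2 rose at 4 h, and 5 fell and 0 rose at 24 h, with medians of -0.56 and -1.08. Among 6 proteoglycans and collagen-binding proteins, 4 fell and 1 rose at 4 h and 3 fell and 1 rose at 24 h, and among 7 wound matrix genes, 3 fell and 2 rose at 4 h and 4 fell and 3 rose at 24 h. The plot of fold changes by class shows this split, with Col4a1, Col4a2, Prelp, Tnc and Thbs1 on the higher side of both panels. Falls made up 42.9% to 71.4% of each class at 4 h, where 26.5% of all genes fell. By 24 h they made up 50% to 71.4%, where 33.7% of all genes fell. Rises lay on both sides of the background. They ran from 14.3% of the collagens to 28.6% of the wound matrix genes at 4 h, beside 20.4% of all genes. The 24 h range was 0% of the elastic fibre genes to 42.9% of the wound matrix genes, beside 28.3%. With 6 to 14 genes per class these shares are coarse, and whether the classes differ from each other was not tested.

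**Figure D1:**
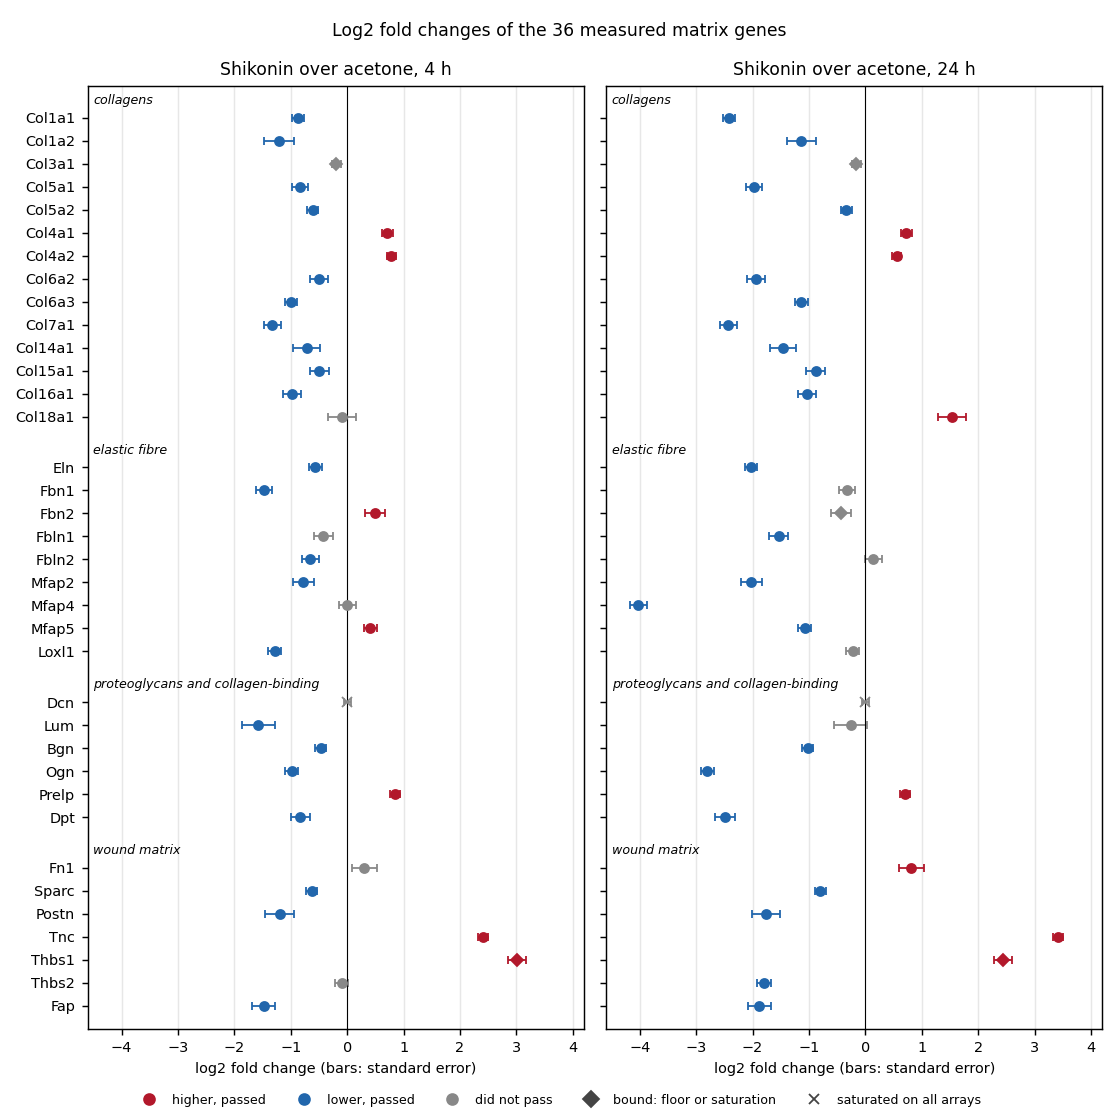
Log2 fold change of shikonin over acetone at 4 h (left) and 24 h (right) for the 36 measured matrix genes, grouped by class, with standard errors as bars. Red points passed as higher and blue points as lower (limma adjusted p of at most 0.05), grey points did not pass, diamonds are bounds and crosses mark a probe saturated on all arrays, and the 24 h panel reaches from Mfap4 at -4.03 to Tnc at 3.42.

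The genes of type I collagen, the main fibril-forming collagen of the dermis, fell at both times. Col1a1, which encodes the alpha 1 chain, had intensities of 11652 and 14307 on the shikonin 4 h arrays, against 23006 and 24153 on the acetone 4 h arrays. At 24 h it had 4680.0 and 4736 on the shikonin 24 h arrays, against 24683 and 25841 on the acetone 24 h arrays. The shikonin arrays lay below the acetone arrays without overlap at both times, and the 24 h shikonin arrays were the lowest of the 8. Col1a1 fell 1.83-fold at 4 h (log2 fold change -0.87 ± 0.11, limma adjusted p = 0.000194) and 5.36-fold at 24 h (log2 fold change -2.42 ± 0.11, limma adjusted p = 1.13e-07). The difference between these effects, 24 h minus 4 h, was -1.55 ± 0.15 (limma adjusted p = 6.04e-05).

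Col1a2, which encodes the alpha 2 chain of the same molecule, had 21795 and 12403 on the shikonin 4 h arrays, against 37484 and 38724 on the acetone 4 h arrays. The 24 h intensities were 10855 and 17724 on the shikonin 24 h arrays, against 31458 and 29497 on the acetone 24 h arrays. The shikonin arrays of each time differed from each other more than the acetone arrays did, but all 4 lay below all 4 acetone arrays. Col1a2 fell 2.32-fold at 4 h (log2 fold change -1.21 ± 0.27, limma adjusted p = 0.0049) and 2.2-fold at 24 h (log2 fold change -1.14 ± 0.27, limma adjusted p = 0.0047), with no difference between times that passed (0.08 ± 0.38). Without shikonin 4 h replicate 2 the 4 h value was -0.81 and no longer passed (limma adjusted p = 0.054), and without shikonin 24 h replicate 1 the 24 h value was -0.78 (limma adjusted p = 0.0585).

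Type III collagen, which shares fibrils with type I and is prominent in young and healing dermis, is encoded by Col3a1. Its probe was near the top of the scanner range, with 52703 and 54075 on the shikonin 4 h arrays, against 65482 and 56859 on the acetone 4 h arrays and 60194 and 56859 on the shikonin 24 h arrays, against 65367 and 65483 on the acetone 24 h arrays. Saturated acetone arrays make its log2 fold changes of -0.19 and -0.16 bounds, and neither passed. Without acetone 4 h replicate 2 the 4 h bound was -0.30 and passed (limma adjusted p = 0.0233). Among the measured members, Col3a1 is therefore the 1 fibrillar collagen gene for which these arrays give no size of change.

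Type V collagen is a minor fibrillar collagen that starts the assembly of type I fibrils and limits their width. Col5a1 had 3854 and 3506 on the shikonin 4 h arrays, against 6399 and 6700.0 on the acetone 4 h arrays. Its 24 h values were 2314 and 2397 on the shikonin 24 h arrays, against 10615 and 8027 on the acetone 24 h arrays. The groups did not overlap at either time, and the gene fell 1.78-fold at 4 h (log2 fold change -0.83 ± 0.14, limma adjusted p = 0.00117) and 3.92-fold at 24 h (log2 fold change -1.97 ± 0.14, limma adjusted p = 2.2e-06), the later effect being larger (difference -1.14, limma adjusted p = 0.00172). Its partner chain Col5a2 fell less by its brightest probe (-0.61 at 4 h and -0.34 at 24 h), and the 24 h call was lost without shikonin 24 h replicate 2 (-0.29, limma adjusted p = 0.0799). The other probes of Col5a2 also fell at both times, by 0.61 and 1.57 on the log2 scale for one and by 1.87 and 0.80 for the other. These probes disagree on which time had the larger effect, since the difference was -0.96 for the first and 1.07 for the second, and both differences passed.

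The genes of the main type IV collagen chains moved the other way. Col4a1 and Col4a2 encode the chains that form the common network of basement membranes, and both rose at both times. Col4a1 had 21656 and 24197 on the shikonin 4 h arrays, against 14652 and 13327 on the acetone 4 h arrays. By 24 h it measured 19498 and 19330.0 on the shikonin 24 h arrays, against 11299 and 12250.0 on the acetone 24 h arrays. All 4 shikonin arrays lay above all 4 acetone arrays, with rises of 1.64-fold at 4 h (log2 fold change 0.71 ± 0.10, limma adjusted p = 0.000305) and 1.65-fold at 24 h (log2 fold change 0.72 ± 0.10, limma adjusted p = 0.000142). Col4a2 had 27555 and 30196 on the shikonin 4 h arrays, against 17195 and 16373 on the acetone 4 h arrays. At 24 h it had 26009 and 25910.0 on the shikonin 24 h arrays, against 17041 and 18371 on the acetone 24 h arrays. It rose 1.72-fold at 4 h (log2 fold change 0.78 ± 0.09, limma adjusted p = 8.71e-05) and 1.47-fold at 24 h (log2 fold change 0.55 ± 0.09, limma adjusted p = 0.000377), and again no shikonin array overlapped an acetone array. The differences between times were 0.01 ± 0.14 for Col4a1 and -0.23 ± 0.12 for Col4a2, and neither passed. Both calls held in each of the 8 fits that left out 1 array. Col4a5, a further type IV chain on the wider list of collagens, went the other way. It had 712 and 558 on the shikonin 4 h arrays, against 1070.0 and 814 on the acetone 4 h arrays, and 957 and 694 on the shikonin 24 h arrays, against 1445 and 1316 on the acetone 24 h arrays. Its log2 fold change of -0.57 at 4 h did not pass (limma adjusted p = 0.0542), and it fell 1.69-fold at 24 h (log2 fold change -0.76 ± 0.21, limma adjusted p = 0.0119).

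The chains of this molecule also share a piece of chromosome, which is shown because it sets the positions from which these genes are read. Their starts adjoin on opposite strands with no protein-coding gene between them. In the RefSeq promoter set (GRCm38.p6) the start of Col4a2, on the forward strand, is at position 11312805 of chromosome 8, and that of Col4a1, on the reverse strand, is at 11312826, 21 bases further on, so the annotated 5′ ends overlap. The RefSeq gene record of Col4a1 reaches beyond this start and past the window shown. The bases chr8:11312800-11312829 of the forward strand hold both starts, each as a capital letter, Col4a2 first.
Col4a2 and Col4a1 starts: tcggcAgtgcgcgggcggcgtctccaAggg
The same window of starts thus belonged to a pair of genes that both rose at 4 h and at 24 h.

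Col18a1 and Col15a1 belong to other collagens of the basement membrane zone. Col18a1, whose protein sits in vessel and epidermal basement membranes and yields the fragment endostatin, had 2185 and 2966 on the shikonin 4 h arrays, against 3094 and 2395 on the acetone 4 h arrays, so that the groups overlapped. The 24 h intensities were 3175 and 3439 on the shikonin 24 h arrays, against 887 and 1482 on the acetone 24 h arrays, and the gene rose 2.88-fold (log2 fold change 1.53 ± 0.25, limma adjusted p = 0.000554). The acetone 24 h arrays were the low ones here, since Col18a1 fell by 1.25 on the log2 scale in acetone 24 h relative to acetone 4 h. Set against the acetone 4 h arrays, the 24 h value was 0.28 and did not pass (limma adjusted p = 0.357), and set against the acetone 24 h arrays, the 4 h value was 1.15 and passed (limma adjusted p = 0.00365). Its relative Col15a1, a collagen of the zone beneath basement membranes, fell by 0.49 at 4 h and by 0.88 at 24 h on the log2 scale. The 4 h call of Col15a1 was lost in 5 of the 8 fits that left out 1 array (limma adjusted p from 0.0539 to 0.198), at its smallest without shikonin 4 h replicate 1 (-0.29).

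Col7a1, the gene of the anchoring fibrils that fasten the epidermal basement membrane to the dermis, fell as far as any collagen gene measured, with Col1a1 beside it at 24 h. Its intensities were 1219 and 1252 on the shikonin 4 h arrays, against 3432 and 2813 on the acetone 4 h arrays. Its 24 h values were 1018 and 871 on the shikonin 24 h arrays, against 5489 and 4716 on the acetone 24 h arrays. It fell 2.51-fold at 4 h (log2 fold change -1.33 ± 0.15, limma adjusted p = 0.000113) and 5.4-fold at 24 h (log2 fold change -2.43 ± 0.15, limma adjusted p = 9.03e-07), with no overlap of groups. The larger value at 24 h stood beside a rise of 0.71 in acetone 24 h over acetone 4 h, and against the acetone arrays of the other time the values were -2.04 at 4 h and -1.72 at 24 h, both past the threshold. Keratinocytes are a main source of type VII collagen in skin, and keratinocyte markers were lower on the same arrays, as given with the marker lists. A link between these changes was not tested.

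Type VI collagen forms beaded microfibrils around cells and between the larger fibrils. Col6a3 had 17943 and 20033 on the shikonin 4 h arrays, against 40564 and 35237 on the acetone 4 h arrays. By 24 h it measured 20963 and 19626 on the shikonin 24 h arrays, against 48793 and 40697 on the acetone 24 h arrays. The shikonin arrays lay below the acetone arrays throughout. Col6a3 fell 1.99-fold at 4 h (log2 fold change -0.996 ± 0.11, limma adjusted p = 0.000114) and 2.2-fold at 24 h (log2 fold change -1.14 ± 0.11, limma adjusted p = 2.16e-05), and the difference between them was -0.14 ± 0.16. Col6a2, another chain of the molecule, had 1368 and 1078 on the shikonin 4 h arrays, against 1635 and 1804 on the acetone 4 h arrays, close groups that did not overlap. At 24 h it had 450.0 and 483 on the shikonin 24 h arrays, against 1900.0 and 1699 on the acetone 24 h arrays, a wide gap. Col6a2 fell 1.41-fold at 4 h (log2 fold change -0.50 ± 0.16, limma adjusted p = 0.0289) and 3.86-fold at 24 h (log2 fold change -1.95 ± 0.16, limma adjusted p = 5.62e-06), and the difference of -1.45 passed (limma adjusted p = 0.00091). Its 4 h call was lost without either acetone 4 h array, without shikonin 4 h replicate 2 and without either shikonin 24 h array, with values from -0.57 to -0.33 (limma adjusted p from 0.0502 to 0.167).

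Col14a1 and Col16a1 encode collagens that lie on the surface of other fibrils. Col14a1 fell by 0.72 at 4 h and by 1.46 at 24 h on the log2 scale, and its 4 h call was lost in 5 of the 8 fits that left out 1 array, with values down to -0.34 without shikonin 4 h replicate 2 and up to -1.10 without shikonin 4 h replicate 1. Its difference between times (-0.74) passed without shikonin 4 h replicate 2 (-1.11, limma adjusted p = 0.0126) and not with all 8 arrays. Col16a1 fell by 0.98 and 1.04, but its level also fell in acetone skin between the times (-1.22, limma adjusted p = 0.00133). Against the acetone 24 h arrays, its shikonin 4 h arrays were 0.23 higher, which did not pass (limma adjusted p = 0.258).

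**Figure D2:**
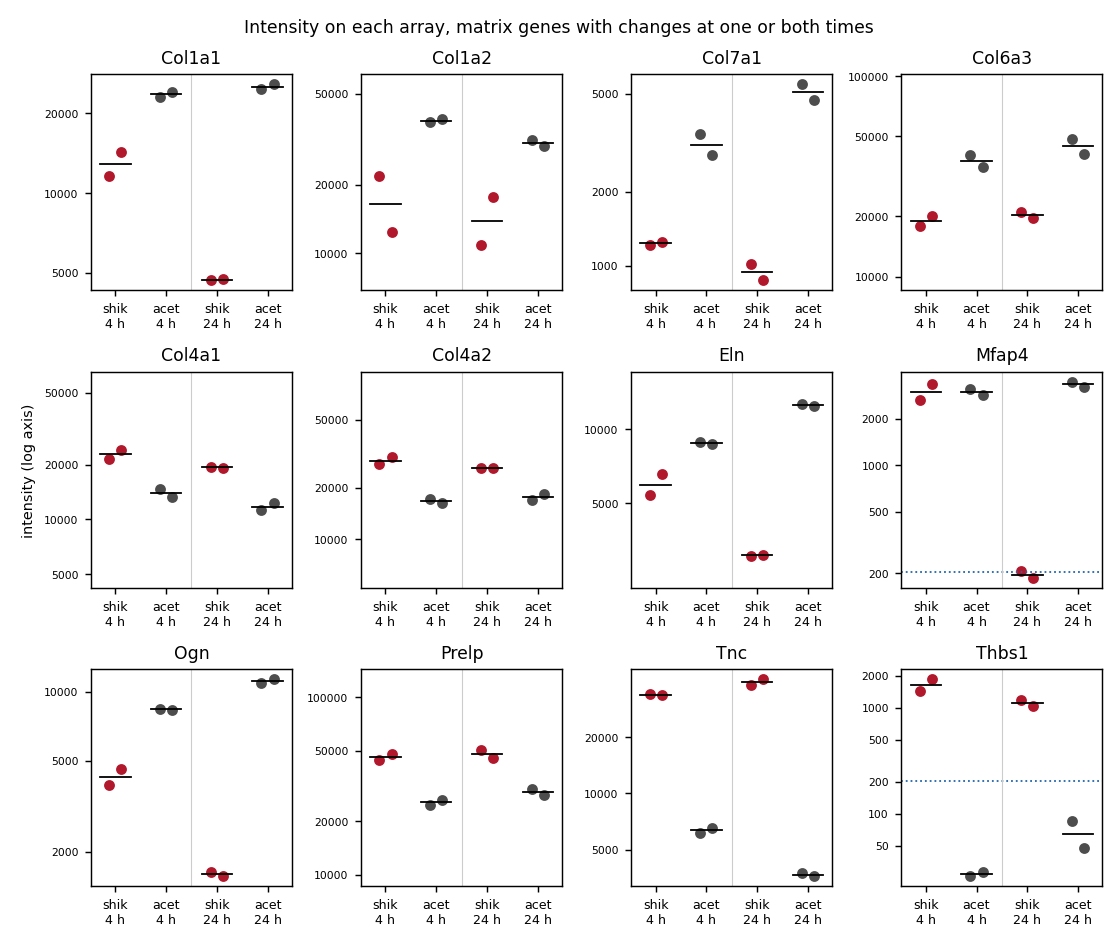
Intensity of the brightest probe on each of the 8 arrays (log axis) for 12 matrix genes, with shikonin arrays in red left of acetone arrays in grey at each time, horizontal bars at the geometric mean of 2 arrays, and a dotted line at the floor of 203.4 where values reach it. Col1a1, Col7a1, Eln and Ogn lie lowest at shikonin 24 h, Col4a1, Col4a2, Prelp, Tnc and Thbs1 lie higher in shikonin at both times, and Mfap4 drops to the floor at shikonin 24 h alone.

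Among the 9 elastic fibre genes, Eln and Mfap2 fell at both times, Fbn1, Loxl1 and Fbln2 at 4 h alone, Fbln1 and Mfap4 at 24 h alone, Mfap5 rose and then fell, and Fbn2 rose at 4 h alone. Eln encodes tropoelastin, the soluble unit of elastin. It had 5400.0 and 6574 on the shikonin 4 h arrays, against 8917 and 8685 on the acetone 4 h arrays. The 24 h intensities were 3069 and 3088 on the shikonin 24 h arrays, against 12660.0 and 12455 on the acetone 24 h arrays. Groups did not overlap, and Eln fell 1.48-fold at 4 h (log2 fold change -0.56 ± 0.11, limma adjusted p = 0.00305) and 4.08-fold at 24 h (log2 fold change -2.03 ± 0.11, limma adjusted p = 4.43e-07). The difference between times was -1.47 (limma adjusted p = 0.000112).

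Fbn1, the gene of the main fibrillin of adult microfibrils, showed the opposite order. It had 2663 and 2471 on the shikonin 4 h arrays, against 7605 and 6688 on the acetone 4 h arrays, a clear gap. Its 24 h values were 4236 and 5638 on the shikonin 24 h arrays, against 6087 and 6210.0 on the acetone 24 h arrays. Groups did not overlap at either time, but shikonin 24 h replicate 2 came close to the acetone arrays. Fbn1 fell 2.78-fold at 4 h (log2 fold change -1.48 ± 0.14, limma adjusted p = 4.83e-05), while its 24 h log2 fold change of -0.33 did not pass (limma adjusted p = 0.0751), and the difference of 1.14 did (limma adjusted p = 0.00205). Without shikonin 24 h replicate 2 the 24 h value was -0.54 and passed (limma adjusted p = 0.0171). Loxl1, whose enzyme cross-links elastin, behaved alike by its brightest probe, with 5974 and 7277 on the shikonin 4 h arrays, against 16092 and 16058 on the acetone 4 h arrays and 18281 and 17562 on the shikonin 24 h arrays, against 22810.0 and 19351 on the acetone 24 h arrays. Its groups lay well apart at 4 h and close together at 24 h without overlap. Loxl1 fell 2.44-fold at 4 h (log2 fold change -1.29 ± 0.12, limma adjusted p = 3.14e-05) and did not pass at 24 h (-0.23), with a difference of 1.06 (limma adjusted p = 0.00101). A dimmer Loxl1 probe had -0.08 at 4 h and 0.39 at 24 h and passed in neither, so the 4 h fall rests on 1 of 2 probes.

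Fbln2, a fibulin that bridges fibrillin and other matrix proteins, had 2368 and 1961 on the shikonin 4 h arrays, against 3229 and 3550.0 on the acetone 4 h arrays, and 4537 and 4228 on the shikonin 24 h arrays, against 3539 and 4469 on the acetone 24 h arrays. The groups were apart at 4 h and overlapped at 24 h. Fbln2 fell 1.57-fold at 4 h (log2 fold change -0.65 ± 0.15, limma adjusted p = 0.00639) and had 0.14 at 24 h, which did not pass. The 4 h call was lost without acetone 4 h replicate 2 (limma adjusted p = 0.0598) or shikonin 4 h replicate 2 (limma adjusted p = 0.0508). The difference between times of 0.79 was lost without either of these or without shikonin 24 h replicate 1, with values from 0.66 to 0.74. Fbln1, its relative, had the reverse order by both of its probes. The brighter had -0.42 at 4 h (limma adjusted p = 0.0704), which passed without shikonin 4 h replicate 1 (-0.66, limma adjusted p = 0.0145), against the acetone 24 h arrays (-0.58, limma adjusted p = 0.0169) and as the mean of both probes (-0.36, limma adjusted p = 0.0315). The brighter probe fell 2.91-fold at 24 h (log2 fold change -1.54 ± 0.17, limma adjusted p = 4.45e-05), and the dimmer had -0.31 and fell 5.15-fold.

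The microfibril-associated glycoproteins gave 3 different courses. Mfap2, which binds fibrillin, had 476 and 635 on the shikonin 4 h arrays, against 910.0 and 972 on the acetone 4 h arrays, and 299 and 244 on the shikonin 24 h arrays, against 1164 and 1036 on the acetone 24 h arrays. The groups did not overlap at either time. Mfap2 fell 1.71-fold at 4 h (log2 fold change -0.78 ± 0.18, limma adjusted p = 0.00748) and 4.06-fold at 24 h (log2 fold change -2.02 ± 0.18, limma adjusted p = 1.19e-05), and without acetone 4 h replicate 2 the 4 h call was lost (limma adjusted p = 0.0549). Mfap5, which also binds fibrillin, was the 1 member that passed in opposite directions. It had 5457 and 5744 on the shikonin 4 h arrays, against 4181 and 4279 on the acetone 4 h arrays, higher in shikonin on both arrays. By 24 h it measured 2524 and 2140.0 on the shikonin 24 h arrays, against 4874 and 4937 on the acetone 24 h arrays, lower in shikonin on both. Mfap5 rose 1.32-fold at 4 h (log2 fold change 0.41 ± 0.12, limma adjusted p = 0.018) and fell 2.11-fold at 24 h (log2 fold change -1.08 ± 0.12, limma adjusted p = 3.56e-05), a difference of -1.48 (limma adjusted p = 0.000122). Its small 4 h rise was lost without either acetone 4 h array or without shikonin 4 h replicate 2 (limma adjusted p from 0.0646 to 0.0992), and against the acetone 24 h arrays it was 0.19 and did not pass. The 24 h fall and the difference held in each fit that left out 1 array.

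Mfap4, whose protein binds elastin and collagen, had the largest 24 h fold among members whose fold is not a bound. At 4 h it had 2646 and 3374 on the shikonin 4 h arrays, against 3108 and 2851 on the acetone 4 h arrays, overlapping groups with a log2 fold change of 0.01. At 24 h it had 206 and 186 on the shikonin 24 h arrays, against 3486 and 3211 on the acetone 24 h arrays. It fell 16.4-fold (log2 fold change -4.03 ± 0.15, limma adjusted p = 3.72e-08), with 1 of the 2 shikonin 24 h arrays under the floor and the other just above it. The difference between times was -4.04 ± 0.21 (limma adjusted p = 1.56e-06). Fbn2, the fibrillin of developing tissue, stayed near the floor on all arrays, with 296 and 374 on the shikonin 4 h arrays, against 196 and 273 on the acetone 4 h arrays, and 146 and 152 on the shikonin 24 h arrays, against 277 and 273 on the acetone 24 h arrays. Its rise at 4 h (log2 fold change 0.50 ± 0.18, limma adjusted p = 0.0457) was lost in 6 of the 8 fits that left out 1 array, and with no floor (limma adjusted p = 0.0819), while its 24 h value is a bound at -0.44 (limma adjusted p = 0.058).

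Among the small leucine-rich proteoglycans, Ogn and Prelp moved in opposite directions. Ogn encodes osteoglycin, which binds collagen fibrils. It had 3925 and 4590.0 on the shikonin 4 h arrays, against 8448 and 8337 on the acetone 4 h arrays. The 24 h intensities were 1630.0 and 1570.0 on the shikonin 24 h arrays, against 10968 and 11342 on the acetone 24 h arrays. Ogn fell 1.98-fold at 4 h (log2 fold change -0.98 ± 0.11, limma adjusted p = 0.000106) and 6.97-fold at 24 h (log2 fold change -2.80 ± 0.11, limma adjusted p = 5.2e-08), and the 24 h shikonin arrays were the lowest of all. The neighbouring gene Omd, for the related osteomodulin, which was on the wider list of proteoglycans, fell by 0.51 at 4 h and by at least 2.23 at 24 h on the log2 scale, where its shikonin arrays lay at the floor.

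Prelp encodes a proteoglycan that links basement membranes to the collagen beneath. It had 44477 and 48122 on the shikonin 4 h arrays, against 24806 and 26409 on the acetone 4 h arrays. Its 24 h values were 50287 and 45252 on the shikonin 24 h arrays, against 30555 and 28008 on the acetone 24 h arrays. All 4 shikonin arrays lay above all 4 acetone arrays. Prelp rose 1.81-fold at 4 h (log2 fold change 0.85 ± 0.09, limma adjusted p = 6.4e-05) and 1.63-fold at 24 h (log2 fold change 0.70 ± 0.09, limma adjusted p = 9.9e-05), and the difference between times was -0.15 ± 0.12.

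Bgn encodes biglycan, a fibril-bound proteoglycan with chondroitin or dermatan sulphate chains. It had 17041 and 20162 on the shikonin 4 h arrays, against 25241 and 26065 on the acetone 4 h arrays, and 16483 and 15189 on the shikonin 24 h arrays, against 32244 and 32122 on the acetone 24 h arrays. The acetone arrays were the higher at both times, with no overlap. Bgn fell 1.38-fold at 4 h (log2 fold change -0.47 ± 0.10, limma adjusted p = 0.00367) and 2.03-fold at 24 h (log2 fold change -1.02 ± 0.10, limma adjusted p = 1.55e-05). Lum encodes lumican, needed for regular collagen fibrils. It had 4572 and 2190.0 on the shikonin 4 h arrays, against 9196 and 9631 on the acetone 4 h arrays, with the shikonin arrays far apart. By 24 h it measured 5122 and 4139 on the shikonin 24 h arrays, against 4866 and 6282 on the acetone 24 h arrays, where the groups overlapped. Lum fell 2.97-fold at 4 h (log2 fold change -1.57 ± 0.29, limma adjusted p = 0.00199) and its 24 h value of -0.26 did not pass. Without shikonin 4 h replicate 2 the 4 h value was -1.04 and still passed. The difference between times (1.31, limma adjusted p = 0.0295) was lost in 6 of the 8 fits that left out 1 array (values from 0.78 to 1.46). Against the acetone 4 h arrays the 24 h value was -1.03 and passed (limma adjusted p = 0.0135).

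Dcn encodes decorin, the main proteoglycan of dermal collagen fibrils. Its brightest probe was saturated on all 8 arrays and a second had intensities of at least 55439 throughout, so neither gives a size of change. Another, much dimmer probe had 2159 and 2475 on the shikonin 4 h arrays, against 2305 and 2031 on the acetone 4 h arrays, and 2620.0 and 3503 on the shikonin 24 h arrays, against 772 and 1069 on the acetone 24 h arrays. This probe rose 3.34-fold at 24 h (log2 fold change 1.74 ± 0.20, limma adjusted p = 5.32e-05) and had 0.10 at 4 h. Its acetone arrays differed between times (-1.25), and the acetone 24 h arrays were the low ones. Dpt encodes dermatopontin, which binds decorin and speeds fibril assembly. It had 13982 and 15998 on the shikonin 4 h arrays, against 25841 and 27403 on the acetone 4 h arrays. At 24 h it had 5286 and 5387 on the shikonin 24 h arrays, against 24233 and 37197 on the acetone 24 h arrays, with shikonin arrays close together and acetone arrays apart. Dpt fell 1.78-fold at 4 h (log2 fold change -0.83 ± 0.17, limma adjusted p = 0.00369) and 5.63-fold at 24 h (log2 fold change -2.49 ± 0.17, limma adjusted p = 1.83e-06), the later effect being larger (difference -1.66, limma adjusted p = 0.000654).

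The wound matrix class held the largest rises. Tnc encodes tenascin C, which is sparse in resting dermis and appears at wound edges. It had 33788 and 33682 on the shikonin 4 h arrays, against 6138 and 6580.0 on the acetone 4 h arrays. The 24 h intensities were 38095 and 40697 on the shikonin 24 h arrays, against 3753 and 3632 on the acetone 24 h arrays. All 4 shikonin arrays were far above the acetone arrays. Tnc rose 5.31-fold at 4 h (log2 fold change 2.41 ± 0.09, limma adjusted p = 9.69e-08) and 10.7-fold at 24 h (log2 fold change 3.42 ± 0.09, limma adjusted p = 4.46e-09). The difference between times of 1.01 passed (limma adjusted p = 0.000224), and Tnc was also lower in acetone 24 h than in acetone 4 h skin (-0.78, limma adjusted p = 0.000521).

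Thbs1 and Thbs2 encode thrombospondins, matricellular proteins that restrain vessel growth, and they moved apart. Thbs1 had 1449 and 1850.0 on the shikonin 4 h arrays and 1185 and 1027 on the shikonin 24 h arrays. Its values were 26 and 28 on the acetone 4 h arrays and 85 and 48 on the acetone 24 h arrays, all under the floor of 203.4. Its 4 h rise was at least 8.05-fold (limma adjusted p = 1.29e-06) and its 24 h rise at least 5.43-fold (limma adjusted p = 1.52e-06), and a second probe gave bounds of 7.52-fold and 5.56-fold. Thbs2 had 21825 and 17415 on the shikonin 4 h arrays, against 20857 and 20922 on the acetone 4 h arrays, overlapping groups. Its 24 h values were 8209 and 7344 on the shikonin 24 h arrays, against 25712 and 28408 on the acetone 24 h arrays. Thbs2 had -0.10 at 4 h and fell 3.48-fold at 24 h (log2 fold change -1.80 ± 0.12, limma adjusted p = 1.4e-06), and its second probe fell 2.87-fold.

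Fn1, the gene of fibronectin, had 2714 and 3271 on the shikonin 4 h arrays, against 2423 and 2413 on the acetone 4 h arrays, and 2227 and 2619 on the shikonin 24 h arrays, against 1069 and 1761 on the acetone 24 h arrays. The shikonin arrays were the higher at both times, narrowly at 4 h. Fn1 had 0.30 at 4 h, which did not pass, and rose 1.76-fold at 24 h (log2 fold change 0.81 ± 0.22, limma adjusted p = 0.00978). That rise was lost without acetone 24 h replicate 1 (0.46, limma adjusted p = 0.055) or shikonin 24 h replicate 2 (0.70, limma adjusted p = 0.088), and against the acetone 4 h arrays the value was -0.002. The difference between times (0.51) did not pass, but did without acetone 24 h replicate 2 (0.87, limma adjusted p = 0.017). The acetone 24 h arrays were the low ones, as acetone 24 h over acetone 4 h was -0.82 (limma adjusted p = 0.0232).

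Postn, Sparc and Fap fell at both times. Postn encodes periostin, which aids collagen cross-linking. It had 9285 and 5628 on the shikonin 4 h arrays, against 18532 and 14795 on the acetone 4 h arrays, and 3779 and 5167 on the shikonin 24 h arrays, against 12864 and 17474 on the acetone 24 h arrays. Replicates were far apart, yet every shikonin array was below every acetone array. Postn fell 2.29-fold at 4 h (log2 fold change -1.20 ± 0.25, limma adjusted p = 0.00412) and 3.39-fold at 24 h (log2 fold change -1.76 ± 0.25, limma adjusted p = 0.00025). Sparc, a matricellular protein that binds collagen in the extracellular space, had 24233 and 22369 on the shikonin 4 h arrays, against 38319 and 33682 on the acetone 4 h arrays, and 20532 and 23699 on the shikonin 24 h arrays, against 38724 and 38319 on the acetone 24 h arrays. Here the replicates were close and the groups separate. Sparc fell 1.54-fold at 4 h (log2 fold change -0.63 ± 0.10, limma adjusted p = 0.000819) and 1.75-fold at 24 h (log2 fold change -0.80 ± 0.10, limma adjusted p = 9.1e-05).

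Fap, a cell-surface protease known as a marker of activated fibroblasts, fell too. It had 986 and 697 on the shikonin 4 h arrays, against 2139 and 2493 on the acetone 4 h arrays. By 24 h it measured 448 and 590.0 on the shikonin 24 h arrays, against 1846 and 1943 on the acetone 24 h arrays, below all acetone arrays. Fap fell 2.79-fold at 4 h (log2 fold change -1.48 ± 0.20, limma adjusted p = 0.000356) and 3.68-fold at 24 h (log2 fold change -1.88 ± 0.20, limma adjusted p = 3.72e-05).

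**Figure D3:**
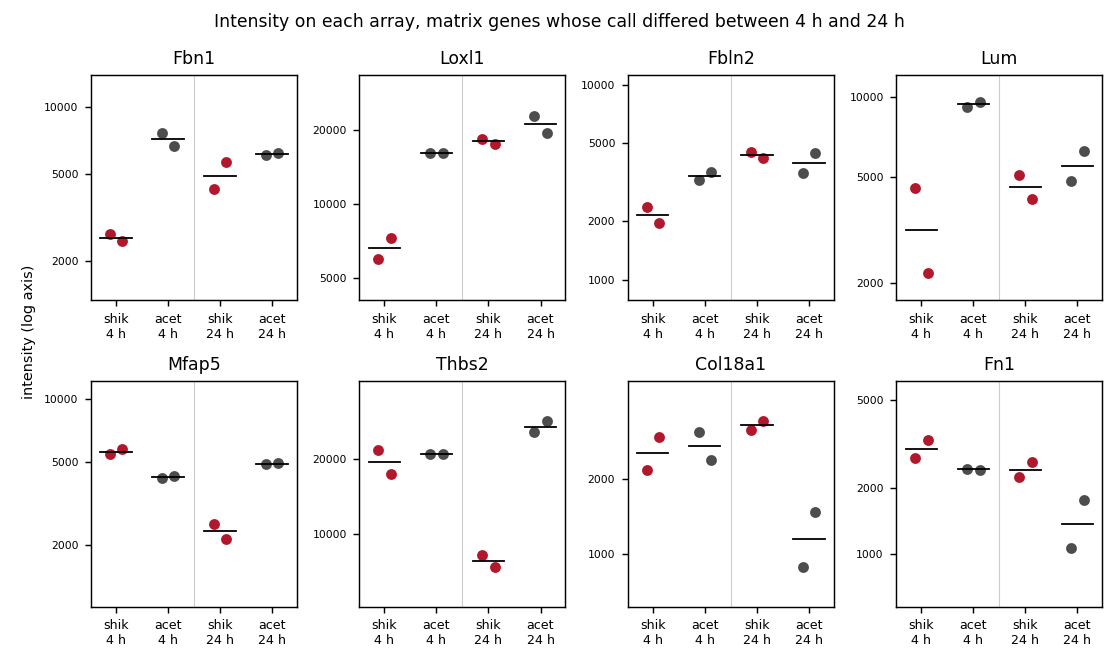
Intensity of the brightest probe on each of the 8 arrays (log axis) for 8 matrix genes whose call differed between 4 h and 24 h, drawn as in the plot of 12 matrix genes, with shikonin left of acetone at each time. By the geometric mean of 2 arrays, Fbn1, Loxl1, Fbln2 and Lum are lowest at shikonin 4 h, Mfap5 and Thbs2 are lowest at shikonin 24 h, and Col18a1 and Fn1 are lowest at acetone 24 h.

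The change of the shikonin effect between times was tested directly, as the 24 h effect minus the 4 h effect. It was lower than 0 past the threshold in 14 members, where 22.8% of all genes were, and higher in 6, where 21.7% of all genes were. The median over the 36 members was -0.40, beside -0.02 over all genes. All 9 measured elastic fibre genes passed, 6 as lower (Mfap4, Mfap5, Eln, Mfap2, Fbln1 and Fbn2) and 3 as higher (Fbn1, Loxl1 and Fbln2). In the collagen class, Col1a1, Col6a2, Col5a1 and Col7a1 were lower and Col18a1 higher. Col4a1, Col4a2, Col1a2 and Col6a3 did not pass, and the intervals of their differences reached from -0.29 to 0.32 for Col4a1, -0.50 to 0.04 for Col4a2, -0.77 to 0.93 for Col1a2 and -0.50 to 0.22 for Col6a3 (95% confidence).

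The acetone groups also differed from each other. In acetone 24 h over acetone 4 h, 7 members were higher past the threshold (Bgn, Col5a1, Col7a1, Eln, Loxl1, Ogn and Thbs2), where 15.8% of all genes were, and 4 were lower (Col16a1, Col18a1, Fn1 and Tnc), where 14.6% of all genes were. The median of the 36 was 0.10, beside 0.06 over all genes, and by the 2-fold criterion 0 were higher and 1 lower, beside 0.751% and 2.94% of all genes. Of these 11 calls, 2 held in each of the 8 fits that left out 1 array. Without acetone 4 h replicate 2 the 7 higher calls became 0, and without acetone 4 h replicate 1 they became 1 and the 4 lower calls 2. Without acetone 24 h replicate 1 there was 1 higher call, without acetone 24 h replicate 2 there were 4, and without either shikonin 24 h array there were 3.

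The sequence before the start of a gene was looked at for genes that moved together. RefSeq promoters (GRCm38.p6) were found for 23 of the 36 measured members, and the 250 bases before the annotated start were searched on both strands for 4 short motifs. A TATA box (TATAAA or TTTATA) was present in 4 of the 23 windows, or 17.4%, namely those of Col3a1, Ogn, Thbs2 and Tnc, against 13.0% of all 27025 windows. A CCAAT box (CCAAT or ATTGG) was present in 9, or 39.1%, against 34.5% of all windows. A GC box (GGGCGG or CCGCCC) was present in 11, or 47.8%, against 33.0% of all windows. The AP-1 site (TGACTCA or TGAGTCA) was in 0 of the 23 windows, against 4.4% of all. These counts describe letters in these windows and were not tested.

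Windows of 4 members are printed in the direction of transcription because they pair a gene that rose strongly with genes that fell. Capitals mark the motifs named above. Tnc, which rose at both times, has a GC box and a TATA box in chr4:64047016-64047265 on the reverse strand, 167 and 126 bases before the start. Ogn, which fell at both times, has overlapping TATA letters in chr13:49607765-49608014 on the forward strand. Col1a2, which fell at both times, has a pair of GC boxes and a CCAAT box in chr6:4505368-4505617 on the forward strand. Dpt, which fell at both times, has none of the 4 motifs in chr1:164796413-164796662 on the forward strand.
Tnc: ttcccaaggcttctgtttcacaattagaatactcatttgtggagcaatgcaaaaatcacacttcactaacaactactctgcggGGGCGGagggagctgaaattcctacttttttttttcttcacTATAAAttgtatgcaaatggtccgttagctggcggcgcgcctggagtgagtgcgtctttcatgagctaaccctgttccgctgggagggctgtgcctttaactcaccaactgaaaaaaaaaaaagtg
Ogn: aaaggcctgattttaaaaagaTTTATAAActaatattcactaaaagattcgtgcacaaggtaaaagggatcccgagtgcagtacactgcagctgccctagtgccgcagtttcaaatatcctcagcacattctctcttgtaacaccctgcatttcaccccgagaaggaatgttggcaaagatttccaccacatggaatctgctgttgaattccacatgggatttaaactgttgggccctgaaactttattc
Col1a2: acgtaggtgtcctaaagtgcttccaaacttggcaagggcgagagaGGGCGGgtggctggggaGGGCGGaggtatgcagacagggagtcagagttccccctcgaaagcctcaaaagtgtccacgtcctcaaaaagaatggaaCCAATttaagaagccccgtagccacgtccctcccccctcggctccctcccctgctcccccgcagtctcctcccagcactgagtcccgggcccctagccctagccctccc
Dpt: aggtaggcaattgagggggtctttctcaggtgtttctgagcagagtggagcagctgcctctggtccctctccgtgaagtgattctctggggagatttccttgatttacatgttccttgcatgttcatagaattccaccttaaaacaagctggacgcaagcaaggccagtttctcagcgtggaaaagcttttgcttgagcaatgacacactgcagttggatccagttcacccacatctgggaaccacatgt
The TATA letters thus stood in windows of genes that rose (Tnc), that fell at both times (Ogn), that fell at 24 h alone (Thbs2) and that did not pass (Col3a1).

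Genes that act on the matrix, on lists chosen with results of these arrays known, are described by their counts, beside the shares of all genes, which were 20.4% up and 26.5% down at 4 h, and 28.3% up with 33.7% down at 24 h. Of 21 measured enzymes and chaperones of collagen synthesis and processing, 0 rose and 9 fell at 4 h and 6 were up and 7 down past the threshold at 24 h, with medians of -0.25 and 0.12. Pcolce2, which enhances the removal of the procollagen C-propeptide, fell at both times (-1.34 and -1.93), and Adamts2, which removes the N-propeptide, fell at 24 h (-1.50). The lysyl hydroxylase genes Plod2 and Plod3, whose products prepare collagen for cross-links, rose at 24 h (1.58 and 1.47), while the collagen genes Col1a1 and Col5a1 were lower on the same arrays. Among 9 other collagens, 2 moved each way at 4 h, while at 24 h there were 4 rises and 2 falls. Col17a1, a hemidesmosomal collagen of basal keratinocytes, fell at both times (-1.18 and -2.10), and Col8a1, a short-chain collagen of vessels, rose at 24 h (1.33).

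Of 13 other elastic fibre genes, 2 rose and 5 fell at 4 h and 5 were up and 6 down past the threshold at 24 h. Emilin2 rose at both times (1.82 and 2.84), and Ltbp4, which helps elastin deposition, fell at 24 h (-2.51). Of 25 other proteoglycans and hyaluronan genes, 9 rose and 9 fell at 4 h and 11 were up and 12 down past the threshold at 24 h. Tnfaip6, whose product remodels hyaluronan in inflamed tissue, rose at both times (4.93 and 3.99), as did the hyaluronan synthase Has1 (2.62 and 2.25), and the decorin relative Aspn fell at both (-1.84 and -3.26). The acetone 24 h arrays of Has1 were low, with -2.40 in acetone 24 h over acetone 4 h. Its shikonin 24 h arrays (1519 and 1236) overlapped its acetone 4 h arrays (1656 and 1407).

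Laminins and their linkers are the partners of type IV collagen in basement membranes. Of 15 laminin and linker genes, 3 rose and 2 fell at 4 h and 3 were up and 5 down past the threshold at 24 h, with medians of -0.07 and -0.32. These are 20% and 13.3% at 4 h and 20% and 33.3% at 24 h, none above the share of all genes. Lama3, a chain of the epidermal laminin, rose at both times (0.45 and 1.28), Nid2, which bridges laminin and type IV collagen, rose at 24 h (1.36), and Lama2, the laminin chain of muscle and nerve, fell at 24 h (-3.24). Of 21 other matricellular genes, 5 rose and 11 fell at 4 h and 5 were up and 9 down past the threshold at 24 h. Ccn1, for a matricellular protein that binds integrins, rose by 4.25 at 4 h, and Tnxb, for the tenascin X of connective tissue, fell by 2.73 at 24 h, on the log2 scale. Of 16 matrix receptors, 5 rose and 6 fell at 4 h and 6 were up and 5 down past the threshold at 24 h, the 24 h counts being 37.5% and 31.2%, beside 28.3% and 33.7% of all genes. The collagen-binding integrin gene Itga11, typical of fibroblasts, fell at both times (-1.03 and -3.83), and Itgav, a chain of receptors for fibronectin and tenascin, rose at both (0.92 and 2.34).

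Cell type markers moved on the same arrays. Their counts stand beside the same shares of all genes, 20.4% up and 26.5% down at 4 h, and 28.3% up and 33.7% down at 24 h. For the fibroblast markers the shares were 25% and 62.5% at 4 h, and 31.2% and 50% at 24 h. Of 16 measured fibroblast markers, 4 rose and 10 fell at 4 h and 5 were up and 8 down past the threshold at 24 h, with medians of -0.49 and -0.18, and Vim was saturated on all arrays. Their summed intensity was 228082 and 231843 on the shikonin 4 h arrays, against 263086 and 267758 on the acetone 4 h arrays, and 248034 and 249044 on the shikonin 24 h arrays, against 245268 and 255058 on the acetone 24 h arrays. The sums depended on 1 gene, Pdpn, for podoplanin, which lymphatic vessels and other cells also make and which had 59738 and 65478 on the shikonin 24 h arrays, against 12110.0 and 11439 on the acetone 24 h arrays. Without Pdpn, left out after its values were seen, the sums of the other 15 were 165453 and 180244 on the shikonin 4 h arrays, against 239500.0 and 230875 on the acetone 4 h arrays, and 189305 and 182556 on the shikonin 24 h arrays, against 233159 and 243621 on the acetone 24 h arrays. With all 16, the sum was lower in shikonin at 4 h, while the groups overlapped at 24 h. The sum of the 15 was lower at both times, so its lower value at 24 h depends on leaving out Pdpn. Calls among the 15 were 3 higher and 10 lower at 4 h, then 4 higher and 8 lower at 24 h. Markers with lower intensity that stayed in included Gsn, with 19267 and 20143 on the shikonin 24 h arrays, against 39950 and 41519 on the acetone 24 h arrays. Cd34 had 6179 and 5473, against 22982 and 19934. Other markers that stayed in were higher on the shikonin 24 h arrays. Among them, Twist2 had 3125 and 3124, against 2004 and 1546 on the acetone 24 h arrays, and Prrx1 had 2404 and 2013, against 1329 and 951. Saturated Vim is part of every sum. Single markers disagreed. The receptor gene Pdgfra fell at 4 h (-0.57) and rose at 24 h (0.47), and Sfrp2 fell at both times (-2.56 and -2.34). For comparison, the summed intensity of the 36 matrix genes was 442480.0 and 444376 on the shikonin 4 h arrays, against 502300.0 and 521547 on the acetone 4 h arrays, and 411384 and 412497 on the shikonin 24 h arrays, against 541804 and 548178 on the acetone 24 h arrays, with Dcn and Col3a1 at or near saturation in every sum.

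Of 10 keratinocyte markers, 1 rose and 7 fell at 4 h and 0 were up and 8 down past the threshold at 24 h (medians -1.43 and -3.19), with sums of 130052 and 135671 on the shikonin 4 h arrays, against 297467 and 305419 on the acetone 4 h arrays, and 83881 and 84880.0 on the shikonin 24 h arrays, against 313913 and 318248 on the acetone 24 h arrays. Krt14 was saturated on every 24 h array, so it could show no change there and makes up most of the shikonin 24 h sums. Saturated acetone arrays make the falls of Krt10 and Krtdap at both times, and of Lor at 4 h, bounds. Of 11 skeletal muscle markers, 0 rose and 11 fell at 4 h and 0 were up and 8 down past the threshold at 24 h, with sums of 163177 and 164062 on the shikonin 4 h arrays, against 289494 and 295493 on the acetone 4 h arrays, and 167800.0 and 184807 on the shikonin 24 h arrays, against 269364 and 277001 on the acetone 24 h arrays, so muscle RNA was present on all arrays. Of 12 neutrophil markers, 11 rose and 0 fell at 4 h and 12 were up and 0 down past the threshold at 24 h (medians 2.98 and 5.86), with sums of 315142 and 321673 on the shikonin 4 h arrays, against 79437 and 88679 on the acetone 4 h arrays, and 360595 and 378061 on the shikonin 24 h arrays, against 13347 and 14155 on the acetone 24 h arrays. Of 11 endothelial markers, 3 rose and 4 fell at 4 h and 8 were up and 1 down past the threshold at 24 h, with sums of 21508 and 22019 on the shikonin 4 h arrays, against 21548 and 22052 on the acetone 4 h arrays, and 41650.0 and 43341 on the shikonin 24 h arrays, against 23426 and 25333 on the acetone 24 h arrays, and Col4a1 and Col4a2 were higher at both times. The endothelial counts are 27.3% up and 36.4% down at 4 h, beside 20.4% and 26.5% of all genes. At 24 h they are 72.7% and 9.09%, beside 28.3% and 33.7%. Macrophage, adipocyte, pericyte with smooth muscle, and erythroid with platelet markers had medians of -0.76, -0.13, -0.28 and 0.33 at 4 h, and 0.35, -1.68, -0.77 and 1.22 at 24 h. None of these markers lay at the floor on all 8 arrays. The part of these shifts in the changes of the matrix genes was not tested.

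**Figure D4:**
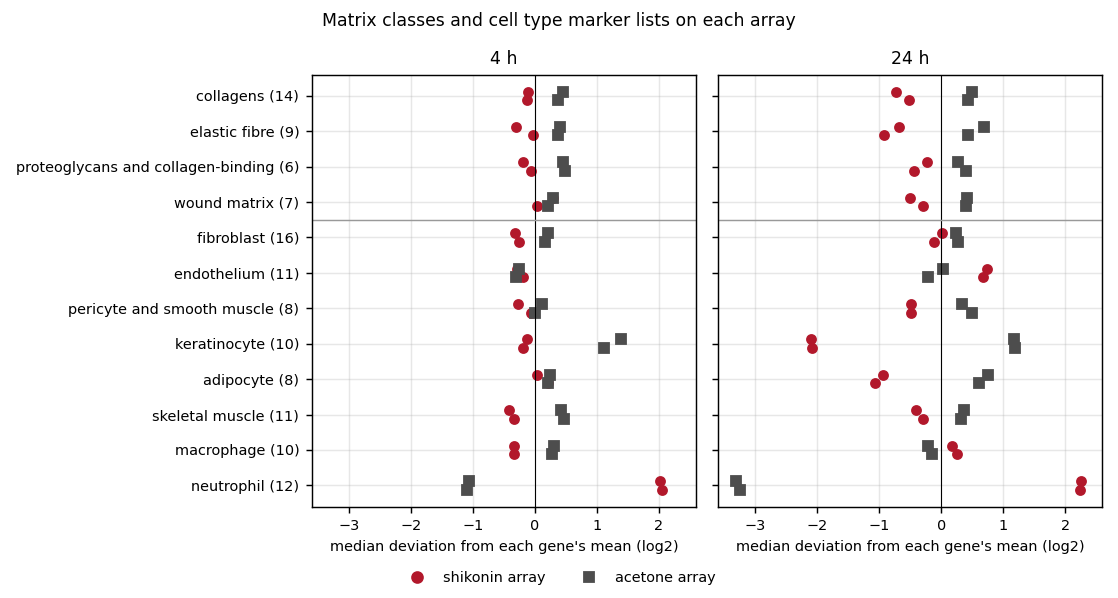
Median deviation on each array (log2) of the genes of 4 matrix classes (above the grey line) and 8 cell type marker lists from each gene's mean over the 8 arrays, with the number of measured genes in brackets, shikonin arrays as red circles and acetone arrays as grey squares, at 4 h (left) and 24 h (right). The shikonin arrays of the collagens lie at -0.14 to -0.12 at 4 h and -0.73 to -0.52 at 24 h, left of the acetone arrays at 0.38 to 0.45 and 0.44 to 0.50, while the neutrophil markers lie furthest right of theirs.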

How the data were processed

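Total RNA from skin was amplified, labelled with Cy5 and hybridised to Mouse OneArray chips, with duplicate samples per group on separate chips, read with GenePix 4.1 and called in Spotfire. The authors deposited 1 linear intensity per probe and array. The quantiles of these intensities match between arrays, with medians of 1128.78 to 1130.44, but the normalization, background correction and reason for 16069 of 29922 probes being blank are details not given in the sources used here. Normalization to equal quantiles hides any change in total RNA, so each change is relative to the other genes.

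The remaining 13853 probes were floored at 203.4, log2-transformed and analysed with limma 3.58.1 under R 4.3.3, using lmFit and the trended form of eBayes on 4 group means, leaving 4 residual degrees of freedom. P-values were adjusted over all probes by the Benjamini-Hochberg method. The 4 h and 24 h comparisons use different acetone arrays but share the estimate of spread. Probe symbols came from the platform annotation, of which 1814 were updated to current RefSeq symbols, and the brightest probe stood for a gene. A fold change was made a bound when the dimmer group lay at the floor on both arrays or the brighter group held an array at 65000 or above. The fit was tested on simulated data. Values on each array are given for the members of each class with the largest changes past the threshold in each direction that moved one way in all 4 pairings of arrays, for those with the largest difference between times, and for further members where a result turns on them. The members and all gene lists were chosen with earlier results of these data known. Groups and replicate numbers came from the labels. The main fit took the replicate numbers as names of the arrays alone. Same-numbered arrays correlated at -0.212 to 0.213 in their deviations from the group means, which does not settle whether they were paired. Other normalizations, floors, filters on dim probes, weights, call criteria, pairings and sets of arrays were tried. Since the deposited quantiles already match, the other normalizations could move little. The other call criteria leave each fold change as it is, so they could not change a direction.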

Additional observations from a re-analysis of the deposited data

Results flagged for a closer look

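Of the 36 measured matrix genes, 20 had shikonin effects that differed between 24 h and 4 h past the limma threshold, and each is given as the 24 h effect minus the 4 h effect on the log2 scale. It was above 0 for Col18a1 (1.62), Lum (1.31), Fbn1 (1.14), Loxl1 (1.06), Tnc (1.01) and Fbln2 (0.79). It was below 0 for Mfap4 (-4.04), Ogn (-1.82), Thbs2 (-1.70), Dpt (-1.66), Col1a1 (-1.55), Mfap5 (-1.48), Eln (-1.47), Col6a2 (-1.45), Mfap2 (-1.25), Col5a1 (-1.14), Fbln1 (-1.12), Col7a1 (-1.10), Fbn2 (-0.93) and Bgn (-0.56). The 6 above 0 are 16.7% of the members, beside 21.7% of all genes. The 14 below 0 are 38.9%, beside 22.8% of all genes. Of these 20 calls, 17 held in each of the 8 fits that left out 1 array, and those of Fbn2, Fbln2 and Lum did not.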

How the results depend on the processing

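Over the 36 genes, the 4 comparisons and the alternatives, 2763 of 2968 values kept their call. Among these, values that passed neither before nor after could change sign. Loxl1 at 24 h, for example, went from -0.23 to 0.157 against the acetone arrays of the other time. The 2763 also hold all 144 values each of quantile normalization and median scaling, which could move little, as the deposited intensities already matched between arrays. Another 173 values lost the threshold and 25 gained it. In 3, a value that passed before or after changed sign, and 4 moved off a value of 0. Calling by 2-fold changes in both numbered pairs left 2 higher and 5 lower at 4 h, 3 higher at 24 h, and 0 higher and 1 lower in acetone 24 h over acetone 4 h. A floor at the 25th percentile gave median log2 fold changes of -0.95 at 24 h and -0.31 for the difference between times, with 3 higher and 2 lower in acetone, and leaving out the dimmer 50% of probes also gave -0.31 for the difference. Without an intensity trend 4 were higher in acetone, and at an adjusted p of 0.01 there was 1. Against the acetone arrays of the other time, the 4 h median was -0.76 and the 24 h median -0.88, Col16a1 was 0.23 and Col18a1 1.15 at 4 h, and Fn1 was -0.002 at 24 h (limma adjusted p = 0.258, 0.00365 and 0.996). The mean of all probes gave Dcn 0.63 at 24 h, 0.61 for the difference and -0.47 in acetone, where a dim unsaturated probe enters the mean. With no floor Thbs1 was 1.23 in acetone 24 h over acetone 4 h, where all 4 arrays lie under the floor otherwise used. Between the acetone groups, Col16a1, Col18a1 and Fn1 differed by -1.22, -1.25 and -0.82, the sizes of their shifts when the acetone arrays were exchanged. Causes of the shifts in this paragraph were not tested.

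Leaving out 1 array at a time gave 5 to 7 higher and 18 to 22 lower at 4 h (median -0.618 to -0.542), 6 to 7 and 21 to 23 at 24 h (-1.048 to -0.962), 4 to 7 and 13 to 15 for the difference (-0.422 to -0.257) and 0 to 7 and 2 to 5 in acetone (0.101 to 0.135). The median of the difference was lowest in size without shikonin 4 h replicate 1. Leaving out 1 array leaves its group with 1, assumed to vary like the others. With the replicate number as a block, the counts were 7 higher and 21 lower at 4 h, 7 and 23 at 24 h, 6 and 14 for the difference and 6 and 4 in acetone. Under the block, Col15a1 at 4 h (limma adjusted p = 0.0533) and Loxl1 in acetone (limma adjusted p = 0.0509) were lost and Fbn2 at 24 h (limma adjusted p = 0.039) was gained. The arrays limit what can be read at both ends of their range, since Dcn and Col3a1 lay at or near saturation and Thbs1, Fbn2 and Mfap4 reached the floor.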
